A study of Mus musculus with 6 samples.

Results

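The baseline transcriptome of mouse alveolar epithelial type 2 (AT2) preparations was described in the 3 libraries of sham-exposed mice, out of 6 libraries in the series. Members were chosen by label alone, as the libraries whose treatment agent is PBS, and the other 3 libraries, from mice given bleomycin at 1 U/kg, were not used. The 3 mice were C57BL/6, with no engineered allele named in the labels, and had been exposed to PBS repeatedly. Total RNA of the isolated cells was sequenced, with a separate mouse behind each library. Age, sex, the number and route of exposures and the isolation method were not given in the sources used here. Values are FPKM, fragments normalised to transcript length and to the mapped total of the library, summed over the listed transcripts of each of 13931 protein-coding genes. FPKM is a level per length, so genes can be set beside each other. With a single group there is no contrast to test, and the spread between 3 mice is given in place of a p-value. How many reads stand behind a value is unknown.

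AT2 cells line the alveoli of the lung, make the lipids and proteins of pulmonary surfactant, pack them into lamellar bodies and secrete them onto the alveolar surface. They also act as progenitors of the flat type 1 (AT1) cells of gas exchange. A preparation enriched for AT2 cells can carry cells of the neighbouring airways, of the alveolar mesenchyme, of vessels and of blood, and the transcripts of such cells are then measured together with those of AT2 cells.

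Surfactant transcripts stood at the top of these preparations, and 19 of the 20 AT2 markers were at 10 FPKM or more in all 3 libraries. Sftpc, which encodes surfactant protein C and is the defining AT2 gene, measured 20624, 14292 and 13393 FPKM in PBS libraries 1, 2 and 3 (16103 ± 3941, mean ± SD, n = 3) and ranked 1 of 13931 genes (mm10 chromosome 14, 70520941 to 70524081). Sftpa1, of the collectin surfactant protein A, was at 1175, 1123 and 998 FPKM and ranked 12. Sftpb, of the hydrophobic surfactant protein B, was at 573, 635 and 419 FPKM and ranked 23. The lamellar body genes were lower by an order of magnitude or more than Sftpc. Abca3, the lipid pump of the lamellar body membrane, was at 230, 213 and 179 FPKM, and Lamp3, a protein of the same membrane, at 121, 198 and 193 FPKM. All 5 defining markers were thus present in every library. The exception among the 20 was Cebpa, a transcription factor of mature AT2 cells, which was listed at 0 in all 3 libraries. Its listed transcripts have at most 2 exons, and zeros listed for genes with so few exons are described with the spread between libraries. Of the 19 AT2 markers with a mean of at least 1 FPKM, 10 were highest in library 1 and 12 lowest in library 3. Over all genes with such a mean these shares were 42.7% and 29.9%. The AT2 list summed to 27924, 21727 and 20015 FPKM.

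The sequence before the transcription start was available for 16 of the 20 AT2 markers, but not for Sftpc, Sftpd, Napsa and Ctsh. Because the AT2 markers carry the identity of the preparation, that sequence was searched for 5 short motifs. The 2 that were more frequent than in all promoters by the widest margin were chosen after the counts were seen and are shown. Promoters are RefSeq, build GRCm38.p6, the sequence of mm10, and were matched where the start lay within 500 bases of the start of the gene's highest listed transcript, which held for 10023 of 13931 genes. The letters TATAAA, the core of a TATA box, read on the coding strand, lay in the last 60 bases before the start in 4 of the 16 AT2 promoters, against 1.95% of all 10023. The letters TGTTTAC, bound by forkhead factors, on either strand, lay in the 250 bases before the start in 4 of the 16, against 2.04% of all. Of the other motifs, CCAAT lay in 5 of 16 against 35.6% of all, TGACTCA of AP-1 in 1 against 3.22%, and TGACGTCA in none against 2.69%, each on either strand in the same window. Capitals mark the matches in the last 120 bases before the start of Sftpa1 (chr14:41131668-41131787, plus strand), of Cxcl15, a lung chemokine (chr5:90794414-90794533, plus strand), of Muc1, a mucin of the apical membrane (chr3:89228936-89229055, plus strand), of Lamp3 (chr16:19706366-19706485, minus strand) and of S100g, a calcium-binding protein (chrX:162964600-162964719, minus strand).
Sftpa1: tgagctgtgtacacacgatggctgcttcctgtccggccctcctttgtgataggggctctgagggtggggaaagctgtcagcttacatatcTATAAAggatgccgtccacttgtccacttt
Cxcl15: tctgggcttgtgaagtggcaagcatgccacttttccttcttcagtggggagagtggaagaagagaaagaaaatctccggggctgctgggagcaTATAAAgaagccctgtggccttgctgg
Muc1: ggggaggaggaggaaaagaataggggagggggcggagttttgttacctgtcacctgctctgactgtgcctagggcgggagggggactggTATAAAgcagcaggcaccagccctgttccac
Lamp3: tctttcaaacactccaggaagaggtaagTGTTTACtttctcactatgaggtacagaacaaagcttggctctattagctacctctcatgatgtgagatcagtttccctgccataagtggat
S100g: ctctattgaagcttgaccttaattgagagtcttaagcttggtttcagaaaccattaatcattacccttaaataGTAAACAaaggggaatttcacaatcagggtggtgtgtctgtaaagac
The TATAAA match began 30, 27 and 31 bases before the start of Sftpa1, Cxcl15 and Muc1. The forkhead match began 92 bases before the start of Lamp3 and 47 bases before that of S100g, there on the opposite strand. In the preparations Cxcl15 was at 235, 273 and 235 FPKM, Muc1 at 253, 218 and 206 FPKM and S100g at 126, 280 and 79.1 FPKM. The fourth promoter with TATAAA was that of Cebpa, which was listed at 0, and the other forkhead matches were in the promoters of Etv5 and Il33. The promoters of the defining markers Sftpb and Abca3 held neither motif. Among the 63 matched ribosomal protein promoters 1.59% held TATAAA and 1.59% the forkhead letters. A match describes these letters in this window and is no evidence that a factor binds there.

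Few genes held much of the measured signal. The 10 genes with the highest mean held 13.5% ± 3.98 (SD, n = 3) of the summed FPKM of a library, the 30 highest 18.5% ± 4.21, the 100 highest 28.2% ± 4.20 and the 500 highest 49.4% ± 3.43. Sftpc alone held 6.86%, 5.46% and 5.29% in libraries 1, 2 and 3. Library 1 was the most concentrated, with 50% of its sum in 383 genes, against 516 in library 2 and 608 in library 3. A total of 10606 genes (76.1%) were at 1 FPKM or more in all 3 libraries, 1718 in none, 3862 were at 10 or more in all 3, and 9 were at 1000 or more in all 3. The counts of list members at 1 FPKM or more given below are to be read beside this 76.1%.

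After Sftpc, the highest genes were a mixture of airway, matrix and AT2 products. Scgb1a1, the secretoglobin of airway club cells, ranked 2 by mean with 9716, 2419 and 2011 FPKM, so that library 1 stood far above the others, which lay close together. Its rank rests on library 1: without it the mean was 2215 FPKM, against 4715 with it, and in libraries 2 and 3 Gsn and Mgp were higher. Gsn, the actin-severing protein gelsolin, measured 3894, 2900 and 3091 FPKM. Mgp, matrix Gla protein, an inhibitor of calcification made by mesenchymal cells, measured 4164, 2591 and 3061 FPKM. These 2 ranked 3 and 4, and in both the 3 libraries lay within a factor of 2. Rank 5 was held by mt-Co1, a subunit of cytochrome c oxidase and the single mitochondrially encoded gene in the files, with 6846, 14.5 and 14.3 FPKM. Its rank rests on library 1 alone. Inmt, a methyltransferase gene counted here among fibroblast markers, was at 2472, 1498 and 1628 FPKM and ranked 6.

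Ranks 7 to 14 held AT2 secretory and lipid genes beside housekeeping genes. Slc34a2, the phosphate transporter of the AT2 apical membrane, was at 1348, 1235 and 1244 FPKM, the narrowest spread among the 10 highest genes. Lyz2, a lysozyme gene expressed by AT2 cells and macrophages, was at 1386, 1169 and 1026 FPKM. Chil1, a chitinase-like secreted protein, was at 904, 794 and 771 FPKM. In these 3 genes library 1 was highest, and the largest fold between libraries was that of Lyz2. Cbr2, a carbonyl reductase of lung epithelium, was at 2040, 1670 and 1095 FPKM. Tmsb4x, which encodes the actin-binding peptide thymosin beta 4, was at 1611, 1315 and 407 FPKM, and Scd1, the desaturase that makes monounsaturated fatty acids, at 1173, 1109 and 312 FPKM. Tmsb4x and Scd1 shared the same order, with library 3 far below the other libraries. Lower in the 30, the surfactant collectin gene Sftpd (783, 755 and 696 FPKM), the MHC class II invariant chain gene Cd74 (753, 720 and 597) and the napsin protease gene Napsa (597, 551 and 437) had their lowest value in library 3. Collagen III, of Col3a1, was at 566, 423 and 623 FPKM and the small proteoglycan decorin, of Dcn, at 927, 491 and 364. The mesenchymal genes thus did not share an order of libraries.

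**Figure D1:**
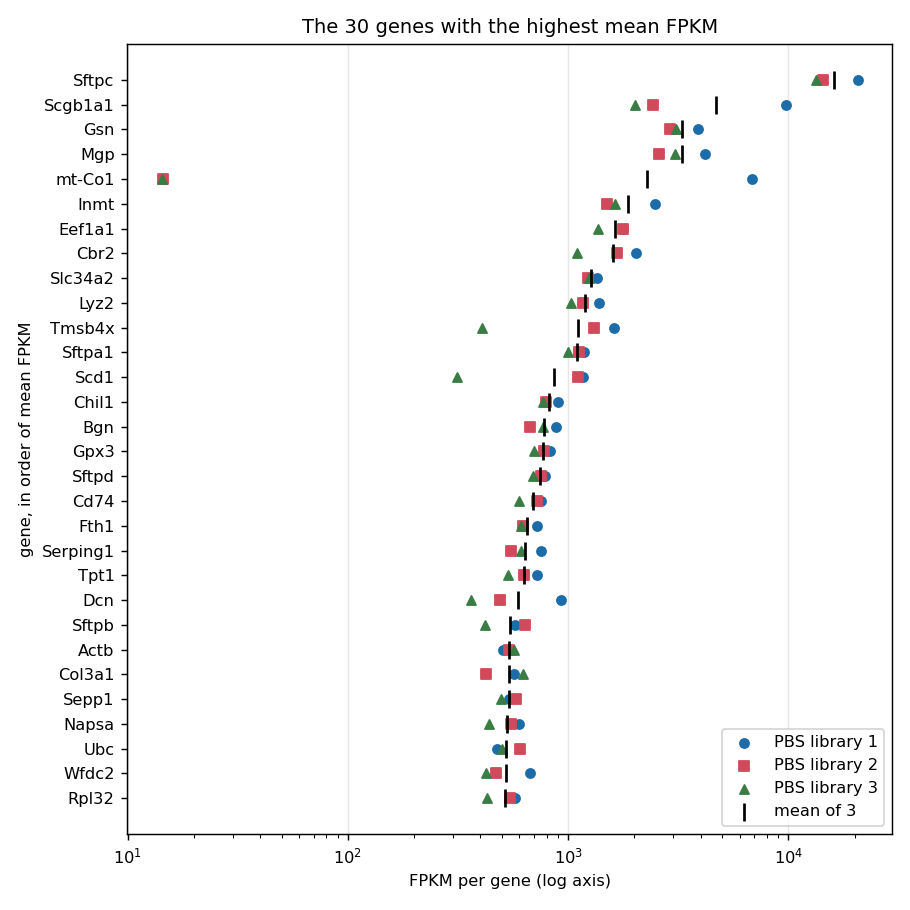
FPKM (log axis) of the 30 genes with the highest mean, in order of that mean, with a symbol for each PBS library and a bar at the mean of 3. Most genes have their 3 symbols close together, while mt-Co1 runs from 14.3 to 6846 FPKM, Scgb1a1 is high in library 1, and Tmsb4x (407) and Scd1 (312) are low in library 3.

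Grouped into families by symbol, cytosolic ribosomal proteins, the structural proteins of the translating ribosome, held the largest share of the summed FPKM among the 33 families. Their 85 genes together held 8.35%, 8.17% and 7.52% of the sum (8.01% ± 0.435, SD, n = 3), all 85 were at 1 FPKM or more in every library, and 83 were at 10 or more. Surfactant proteins held 7.70%, 6.42% and 6.12% with 4 genes. The share of the surfactant family was thus near that of a family with many times more genes, and library 1 was the highest in both families. Nuclear-encoded subunits of the respiratory chain and ATP synthase, 100 genes, held 1.91% ± 0.0297 and had the smallest SD relative to the mean of the 5 families with the largest shares. Secretoglobins, small secreted airway proteins with 4 genes in the files, held 3.34%, 1.18% and 0.873%, so that their mean of 1.80% ± 1.35 was 1.03% without library 1.

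Transport, antigen presentation and matrix followed. Solute carriers held 1.41% ± 0.0822, and Slc34a2 was the highest of them. Of their 251 genes 194 (77.3%) were at 1 FPKM or more in every library, near the 76.1% of all genes. Genes of MHC class I and II and the invariant chain held 0.810% ± 0.0367, with Cd74 highest. Collagens held 0.809% ± 0.0992, with 27 of 32 genes at 1 FPKM or more in all 3 libraries and Col3a1 and Col1a2 (507, 401 and 460 FPKM) in front. These shares differed little between libraries. The 4 globin genes held 0.0066%, 0.163% and 0.00757%, a share that stood apart in library 2. Keratins held 0.101% ± 0.0348, with 7 of 16 genes at 1 FPKM or more throughout, led by Krt18 (67.2, 142 and 68.3 FPKM) and Krt8 (94.1, 139 and 42.3 FPKM), the keratin pair of simple epithelia.

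**Figure D2:**
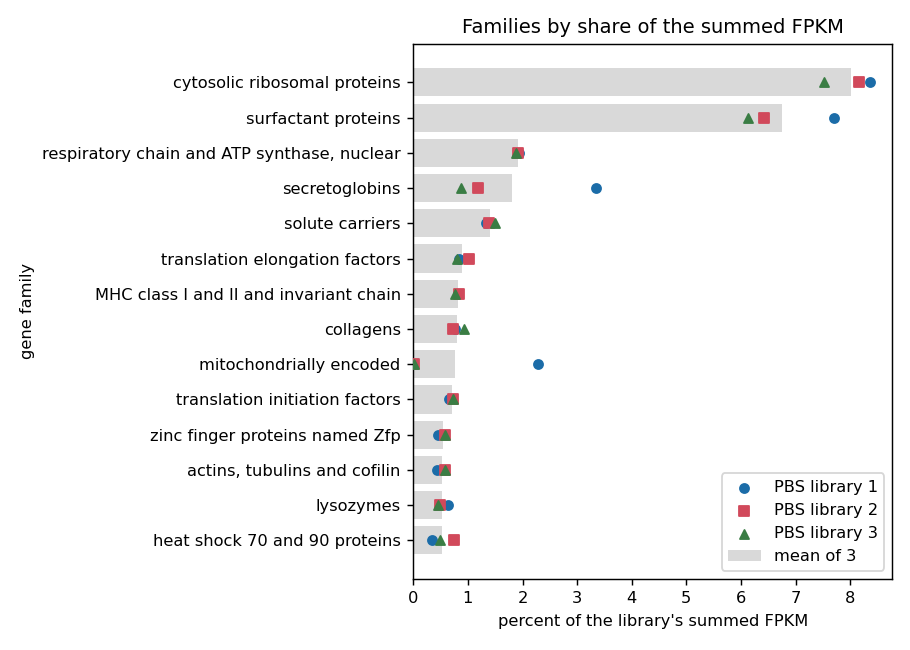
Percent of each library's summed FPKM held by the 14 families with the highest mean share, with grey bars at the mean of 3 PBS libraries and a symbol for each library. Ribosomal proteins and the 4 surfactant genes lead, at 8.01% and 6.75%, and secretoglobins and the mitochondrially encoded gene are spread by library 1 (3.34% and 2.28%).

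The machinery that makes and stores surfactant was present in depth. Of 31 listed genes of lamellar bodies and surfactant processing in the files, 29 were at 1 FPKM or more in all 3 libraries, with a median of the members' mean of 44.9 FPKM against 5.93 over all genes. Napsa and Ctsh, both proteases that trim the surfactant propeptides, were at 597, 551 and 437 and at 144, 172 and 142 FPKM. Anxa2, an annexin of secretory granules, was at 316, 253 and 278 FPKM. None of these 3 genes differed by as much as 2-fold between libraries. Hps6, of a complex that builds lysosome-related organelles, was listed at 0, 2.10 and 0 FPKM and has 1 exon.

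Lipid synthesis was led by fatty acid enzymes. Of 19 fatty acid synthesis genes 18 were at 1 FPKM or more in every library, with a median of 50.5 FPKM. Fasn, the fatty acid synthase gene, was at 166, 202 and 191 FPKM, and Elovl1, an elongase of very long chains, at 328, 302 and 418 FPKM. The desaturase genes did not follow them in library 3: Scd2 was at 155, 141 and 28.9 FPKM, in the same order as Scd1. Of 25 genes of phosphatidylcholine and phospholipid synthesis 23 were at 1 FPKM or more throughout (median 21.8 FPKM), led by Lpcat1, the acyltransferase that makes surfactant phosphatidylcholine, at 179, 156 and 133 FPKM. The sum of that list differed by less than 10 FPKM between libraries, at 640, 639 and 631 FPKM. As a share of each library's summed FPKM it was 0.213%, 0.244% and 0.249%, lowest in library 1. Of 27 cholesterol genes 26 were at 1 FPKM or more throughout (median 18.2 FPKM), among them Idi1, an isomerase of the pathway, at 33.6, 35.4 and 49.4 FPKM.

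Ion transport, which clears alveolar fluid, held 19 listed genes, 15 of them (78.9%) at 1 FPKM or more in every library, near the 76.1% of all genes. Behind Slc34a2, Atp1b1, of the sodium pump, measured 237, 323 and 63.0 FPKM, and Scnn1a, of the epithelial sodium channel, 48.4, 47.6 and 29.7 FPKM. Library 3 was lowest for both genes, most clearly for Atp1b1.

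Markers of AT1 cells were present in every library. All 19 listed AT1 markers were at 1 FPKM or more in all 3 libraries, with a median of 39.2 FPKM, against 216 for the AT2 list. Ager, the receptor best known from AT1 cells, was at 318, 230 and 253 FPKM, and Aqp5, a water channel of AT1 cells, at 108, 100 and 77.0 FPKM. Pdpn and Rtkn2, the other defining AT1 genes beside Hopx, were lower, at 11.7, 8.75 and 16.6 FPKM and at 1.75, 4.30 and 2.53 FPKM. The AT1 genes were therefore far from uniform, with mean levels of the 5 defining members from 2.86 to 267 FPKM. Hopx, a homeodomain cofactor, was at 75.7, 71.7 and 17.1 FPKM, low in library 3. Ager and Aqp5 stayed within a factor of 2 in the same libraries. In bulk RNA fewer cells of a type and less RNA per cell cannot be told apart, so a list's level is not a count of cells. Whether AT1 cells or the cells labelled AT2 held these transcripts was not tested.

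Airway genes were led by club cell products. Of 11 club cell markers 10 were at 1 FPKM or more in every library, and the list summed to 12613, 5281 and 3624 FPKM. Most of the excess of library 1 lay in Scgb1a1: the list's other genes were more often highest in library 2, which held the highest value of 7 of 11. Over all 11677 genes with a mean of at least 1 FPKM, 42.7% were highest in library 1, 25.1% in library 2 and 32.3% in library 3, and 29.9%, 40.2% and 29.9% were lowest in libraries 1, 2 and 3. Scgb3a2, a secretoglobin of the smaller airways, was at 289, 587 and 129 FPKM, and Cyp2f2, a cytochrome P450 of club cells, at 439, 368 and 199 FPKM. Scgb1a1 and Scgb3a2 thus had different orders of libraries. Ciliated cell markers, of motile cilia, were at 1 FPKM or more throughout for 13 of 14, at a median of 10.4 FPKM. Foxj1, the regulator of motile cilia, was at 35.6, 19.1 and 19.8 FPKM, and Tppp3, a tubulin-binding protein, at 211, 123 and 72.7 FPKM. Of 13 ciliated genes with a mean of at least 1 FPKM, 10 were highest in library 1, or 8 with equal sums, and 12 were lowest in library 2, or 9 with equal sums. Library 1 was the most often highest over all genes as well, though with equal sums its share was 23.6%. With equal sums library 2 was lowest for 33.4% of all genes.

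Other airway lineages were at or near the bottom of the table. None of 8 basal cell markers reached 1 FPKM in all 3 libraries: Krt5, the basal keratin, was at 0, 0 and 0.0733 FPKM, and Trp63, the basal cell regulator, was listed at 0 in all 3. Of 3 goblet cell genes in the files only Tff2, a trefoil peptide, at 1.82, 4.63 and 4.25 FPKM, reached 1 FPKM throughout, and Spdef, the goblet regulator, was at 0.131, 0.894 and 0.834 FPKM. Of 9 neuroendocrine genes 2 did, among them Syp, a protein of secretory vesicles, at 1.99, 2.65 and 3.38 FPKM. These lineages were thus represented by traces. Genes of transitional epithelium, the state between AT2 and AT1 cells after injury, were at a median of 22.7 FPKM with 13 of 14 present throughout, among them Krt8, Krt18 and the stress cofactor gene Nupr1 (138, 121 and 146 FPKM). Its defining genes besides Krt8 were lower or absent in part. Sfn, with 1 exon, was at 0, 39.9 and 0 FPKM, and Cldn4 had a mean below 3.67 FPKM. Whether cells in this state were present was not tested.

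The epithelial transcription factors were measured at lower levels than the secretory genes, with a median of 15.6 FPKM. Of 34 factors 27 (79.4%) were at 1 FPKM or more in every library, near the 76.1% of all genes. Etv5, an effector of growth factor signalling that maintains AT2 cells, was at 157, 142 and 51.5 FPKM. Nkx2-1, the lung lineage factor, was at 41.5, 113 and 32.1 FPKM. Srebf1, which drives lipogenic genes, was at 65.5, 46.6 and 47.2 FPKM. Each of the 3 had a different order of libraries. By library, 17 of the 32 factors with a mean of at least 1 FPKM were lowest in library 3 and 5 in library 2, against 29.9% and 40.2% of all genes. With equal sums library 3 was lowest for 14, against 19.8% of all genes, and library 1 for 15, against 46.8%. Sox9, of the distal lung progenitor, was below 1 FPKM in every library, at 0.669, 0.911 and 0.395 FPKM.

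Mesenchymal transcripts were abundant. All 13 fibroblast markers were at 1 FPKM or more in every library, with a median of 276 FPKM, above the 216 FPKM of the AT2 list, although the AT2 list summed to 20015 to 27924 FPKM and the fibroblast list to 4267 to 6447 FPKM. Col1a1, of the main chain of collagen I, was at 318, 267 and 242 FPKM. Pdgfra, the receptor of alveolar fibroblasts, was at 126, 156 and 184 FPKM, and Tcf21, a lipofibroblast transcription factor, at 119, 112 and 110 FPKM. In these genes the libraries lay within a factor of 2, and no library was lowest in all 3. Sparc, a collagen-binding matrix protein, was at 637, 208 and 549 FPKM, low in library 2. That library held the lowest value for 8 of 13 fibroblast genes, against 40.2% of all genes. With equal sums it was lowest for 7, against 33.4% of all genes. Whether the cells labelled AT2 or other cells in the preparation held these transcripts was not tested. Genes of smooth muscle and pericytes were lower: Tagln, an actin-binding protein, was at 62.2, 63.4 and 70.7 FPKM, Acta2, smooth muscle actin, at 33.1, 39.4 and 47.0 FPKM, and Rgs5, a pericyte gene, at 0.344, 0.354 and 0.333 FPKM.

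Mesothelial genes, of the lining of the lung surface, were listed in all 3 libraries. Upk3b, a uroplakin of mesothelium, was at 54.0, 7.59 and 15.6 FPKM, Msln, mesothelin, at 26.6, 8.15 and 13.9 FPKM, and Wt1, the mesothelial transcription factor, at 4.31, 0.737 and 1.51 FPKM. All 7 genes were highest in library 1 and lowest in library 2, and the list summed to 146, 47.5 and 77.8 FPKM. Of all genes 42.7% were highest in library 1 and 40.2% lowest in library 2. With libraries scaled to equal sums, library 1 was highest for 5 of 7, against 23.6% of all genes, and library 2 lowest for 7, against 33.4%.

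Leukocyte and endothelial transcripts were low. Over 8 leukocyte lists with 85 genes in the files, 34 genes (40.0%) were at 1 FPKM or more in every library, against 76.1% of all genes, and 30 were below 1 FPKM in all 3. The median of their means was 1.17 FPKM. Ptprc, the gene of the leukocyte antigen CD45, was at 0.0706, 3.81 and 4.85 FPKM, near 0 in library 1 only. Of the 10 general leukocyte genes 9 were lowest in library 1, against 29.9% of all genes, and for some of them the gap was smaller. Laptm5, a lysosomal protein of leukocytes, was at 4.79, 7.12 and 6.72 FPKM and Cd53, a tetraspanin, at 3.38, 4.03 and 4.87 FPKM. Lcp1, the leukocyte plastin, was at 39.7, 49.7 and 40.9 FPKM and was the highest of the general leukocyte list.

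By leukocyte class, the defining genes of T cells were below 1 FPKM, with Cd3e, of the T cell receptor complex, at 0.356, 0.548 and 0.688 FPKM. Those of B cells were slightly higher, with Cd79a, of the B cell receptor, at 4.04, 9.80 and 7.99 FPKM. Both genes were lowest in library 1. S100a8 and S100a9, the calprotectin pair of neutrophils, were at 5.60, 2.76 and 13.7 and at 8.67, 4.86 and 14.1 FPKM, highest in library 3 and lowest in library 2. Among alveolar macrophage genes, Marco, a scavenger receptor, was at 0.736, 0.0697 and 0.699 FPKM and Siglecf, a sialic acid receptor, at 0.240, 0.0770 and 0.0558 FPKM, while Chil3, a chitinase-like protein, was at 13.9, 9.15 and 13.6 FPKM. In the list of monocytes and recruited macrophages Apoe, a lipid carrier made by many cell types, was at 905, 312 and 317 FPKM, and Cd68, the next, at 8.24, 12.4 and 5.40 FPKM. Apoe made up most of the summed level of all 8 lists, 1156, 569 and 614 FPKM. Hdc, which makes histamine, was at 42.4, 28.5 and 40.3 FPKM, while Cpa3 and Fcer1a, both of mast cells, were at 0.529, 0.156 and 0.209 FPKM and at 0 in all 3 libraries.

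Of 18 endothelial markers 11 were at 1 FPKM or more throughout, with a median of 3.15 FPKM. Pecam1, of the adhesion molecule CD31, was at 5.73, 5.03 and 6.23 FPKM, and Cdh5, of vascular cadherin, at 7.20, 7.06 and 6.08 FPKM. These values were steady across libraries. Cldn5, the endothelial claudin, was listed at 0 in all 3 libraries and has 1 exon. Erythroid genes separated the libraries: Hba-a1, an alpha globin gene, was at 4.61, 109 and 5.77 FPKM, Hbb-bs, a beta globin gene, at 7.14, 134 and 5.53 FPKM, and Alas2, the erythroid enzyme of haem synthesis, at 0.0534, 3.21 and 0.111 FPKM. All 5 listed genes were highest in library 2, against 25.1% of all genes. Globin copies share nearly identical sequence, so the split of FPKM between copies is uncertain.

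**Figure D3:**
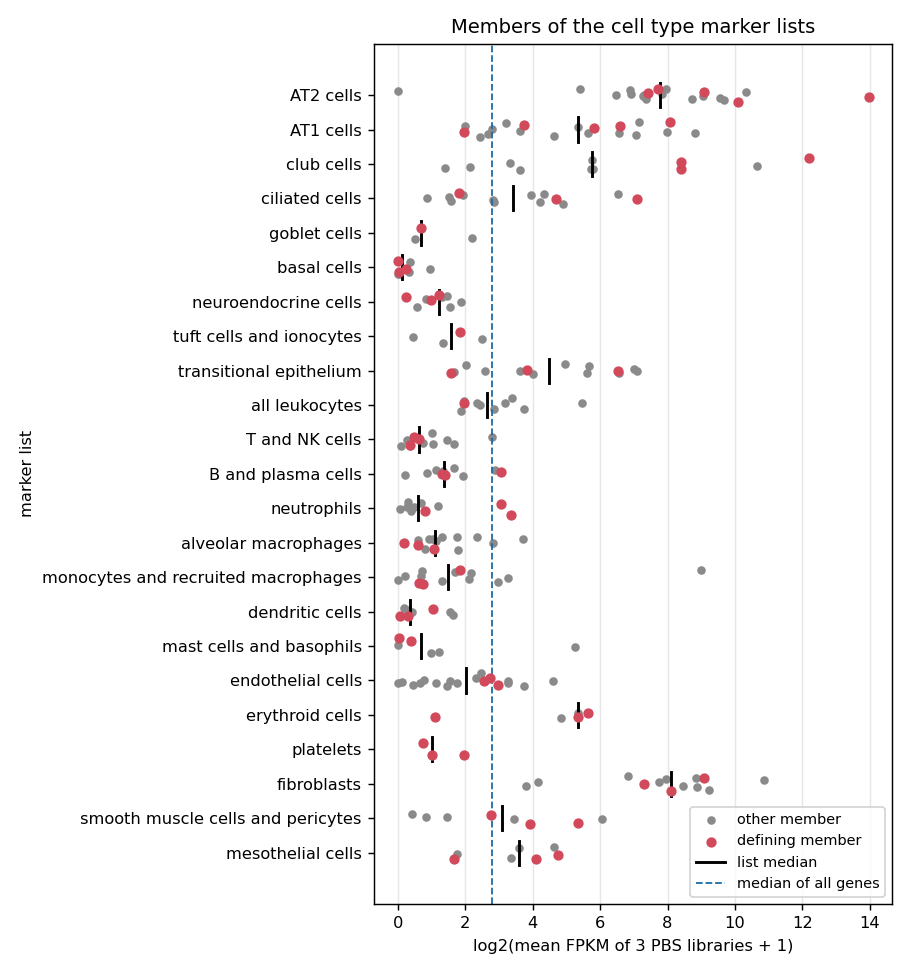
Each point is a member of a marker list at log2(mean FPKM of 3 PBS libraries + 1), with defining members in red, black bars at the list medians and a dashed line at the median of all 13931 genes (5.93 FPKM). The AT2 and fibroblast lists lie far to the right (medians 216 and 276 FPKM), AT1 and club cell lists follow (39.2 and 53.0), and basal, T cell and dendritic cell lists lie near 0.

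Defence genes were among the highest of the pathway lists. All 16 genes of lysozymes and antimicrobial proteins were at 1 FPKM or more in every library, with a median of 129 FPKM. Wfdc2, a secreted protease inhibitor family protein, was at 673, 468 and 423 FPKM, and Rnase4, a secreted ribonuclease, at 318, 516 and 530 FPKM. Lyz1, the second lysozyme gene, was at 547, 132 and 104 FPKM, so that it stood apart in library 1 where its neighbour Lyz2 did not. Of 14 complement genes 12 were present throughout (median 77.6 FPKM), with C3, the central component, at 486, 395 and 404 FPKM, Hc, which encodes component C5, at 317, 497 and 447 FPKM, and the inhibitor gene Serping1 at 754, 551 and 612 FPKM. The receptor gene C5ar1 was low, at 0.274, 0.262 and 0.230 FPKM.

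MHC class II presentation, which AT2 cells are known to carry out, was measured for 11 genes. Of these 9 (81.8%) were at 1 FPKM or more throughout, against 76.1% of all genes. Besides Cd74, H2-Aa was at 307, 273 and 218 FPKM and H2-Ab1 at 221, 150 and 185 FPKM, both chains of the peptide-binding molecule. Ciita, the transactivator of this locus, was at 1.99, 1.86 and 3.43 FPKM. The class II genes therefore stood at about the level of class I, where H2-K1 was at 244, 226 and 184 FPKM and B2m, the light chain, at 286, 222 and 238 FPKM. Antioxidant genes held a median of 79.4 FPKM with 25 of 26 present throughout, led by Gpx3, the secreted glutathione peroxidase, at 829, 777 and 698 FPKM and the ferritin heavy chain gene Fth1 at 723, 626 and 610 FPKM. Nqo1, an inducible quinone reductase, was at 1.22, 0.897 and 1.70 FPKM.

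Of 22 xenobiotic metabolism genes 20 were at 1 FPKM or more in every library (median 28.6 FPKM), among them Aldh1a1, which oxidises retinal, at 235, 435 and 413 FPKM, Ces1d, a carboxylesterase, at 373, 368 and 286 FPKM, and Fmo2, the lung flavin monooxygenase, at 261, 364 and 374 FPKM. The inducible genes Cyp1a1 and Cyp1b1 were low, at 0.316, 0.313 and 0.729 and at 0.422, 0.944 and 1.24 FPKM. Of 17 glycolysis genes 16 were present throughout (median 28.0 FPKM), with Aldoa, an aldolase, at 252, 209 and 189 FPKM and Slc16a3, a lactate exporter, at 1.92, 0.886 and 1.59 FPKM. Of 23 genes of epithelial adhesion and polarity 22 were present throughout (median 19.8 FPKM), with Cdh1, E-cadherin, at 88.4, 79.5 and 64.4 FPKM and Cldn18, the claudin of alveolar epithelium, at 135, 128 and 132 FPKM. Cldn18 was thus even across the libraries. Ctnnb1, beta-catenin, was at 244, 119 and 257 FPKM, low in library 2.

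Among receptors through which AT2 cells receive growth signals, 23 of 27 genes (85.2%) were at 1 FPKM or more in every library, against 76.1% of all genes. Their median was 9.34 FPKM. Fgfr2 and Fgfr3, receptors of fibroblast growth factors, were the highest. Fgfr2 was at 86.7, 53.6 and 77.8 FPKM, Fgfr3 at 57.7, 48.8 and 63.1 FPKM and Fgfr1, of the same family, at 25.2, 23.8 and 22.8 FPKM. Tgfbr2, a receptor of TGF-beta, was at 26.0, 34.1 and 42.9 FPKM, and Bmpr1a, of bone morphogenetic proteins, at 24.3, 31.8 and 32.7 FPKM. None of these 5 differed by 2-fold between libraries. Igf1r, of insulin-like growth factor, was at 1.51, 7.91 and 2.41 FPKM, highest in library 2, and Csf2rb, the shared chain of the GM-CSF receptor, which surfactant clearance needs, at 1.40, 0.495 and 1.25 FPKM. Fzd2, a Wnt receptor with 1 exon, was listed at 0 in all 3 libraries.

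Immediate early genes, which cells switch on within minutes of a stimulus or of tissue handling, differed between the libraries. Of 30 listed genes 24 (80%) were at 1 FPKM or more in every library, near the 76.1% of all genes. The median was 59.3 FPKM, or 38.2 FPKM without library 2. Fos, the transcription factor subunit, was at 372, 771 and 286 FPKM, Jun, its partner, at 221, 496 and 210 FPKM, and Egr1, a zinc finger factor, at 206, 406 and 237 FPKM. Library 2 was highest in each of these 3. It was also highest for 25 of the 27 members with a mean of at least 1 FPKM, while 25.1% of all 11677 genes with such a mean were highest in library 2. With 1-exon and 2-exon genes left out the count was 15 of 17, and it was 24 or 25 of 27 under 3 other scalings of the libraries. The list summed to 2499, 5168 and 2226 FPKM. Junb, of the same family, was at 354 and 508 FPKM in libraries 1 and 2 and listed at 0 in library 3, and Rhob, a small GTPase, was listed at 0 in all 3. Both have 1 exon.

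The cyclic AMP response element, with the letters TGACGTCA, which read the same on both strands, is a known route of induction for genes of this class and was searched in their promoters. It lay in the 250 bases before the start in 3 of 19 matched immediate early promoters, against 2.69% of all 10023 promoters. These were Dusp1, a phosphatase of MAP kinases (last 250 bases, chr17:26508473-26508722, minus strand), Btg2, an antiproliferative factor (last 250 bases, chr1:134079156-134079405, minus strand), and Maff, a small Maf protein (last 120 bases, chr15:79347400-79347519, plus strand), with the match in capitals.
Dusp1: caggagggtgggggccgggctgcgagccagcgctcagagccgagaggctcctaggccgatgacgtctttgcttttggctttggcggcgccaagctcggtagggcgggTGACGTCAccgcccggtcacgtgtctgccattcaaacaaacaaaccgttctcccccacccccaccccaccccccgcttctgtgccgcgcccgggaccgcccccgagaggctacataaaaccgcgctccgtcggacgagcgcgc
Btg2: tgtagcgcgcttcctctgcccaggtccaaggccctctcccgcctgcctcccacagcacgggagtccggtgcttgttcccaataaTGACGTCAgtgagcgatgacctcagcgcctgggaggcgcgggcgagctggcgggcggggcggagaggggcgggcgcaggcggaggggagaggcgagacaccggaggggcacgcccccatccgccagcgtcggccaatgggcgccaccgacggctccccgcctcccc
Maff: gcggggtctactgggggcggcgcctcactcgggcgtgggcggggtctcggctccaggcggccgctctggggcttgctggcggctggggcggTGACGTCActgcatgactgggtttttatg
The match began 143, 166 and 29 bases before the start of Dusp1, Btg2 and Maff. Dusp1 was at 163, 179 and 77.5 FPKM, Btg2 at 96.6, 245 and 178 FPKM and Maff at 3.34, 10.9 and 4.87 FPKM. All 3 were highest in library 2, as were most members without the match. These 3 genes were named because their promoters held the letters. Of the other motifs searched, TATAAA lay in 2 of the 19 (1.95% of all promoters) and CCAAT in 9 (35.6%). The forkhead letters lay in 1 (2.04%) and TGACTCA in none (3.22%). TGACGTCA also lay in 9.52% of 63 ribosomal protein promoters and in 5.71% of 70 promoters of the 100 highest genes.

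Chaperone genes had the same library in front. Of 16 heat shock genes with a mean of at least 1 FPKM, 13 were highest in library 2, against 25.1% of all genes, and the list summed to 1301, 2341 and 1532 FPKM. Hspa8, the constitutive HSP70, was at 166, 397 and 180 FPKM, and Hsp90aa1, the inducible HSP90, at 93.4, 231 and 111 FPKM. Hspb1, a small heat shock protein, was instead lowest in library 2, with 137, 48.6 and 140 FPKM. Library 2 was therefore not highest for every chaperone. In the unfolded protein response of the endoplasmic reticulum 15 of 22 genes were highest in library 2. Hspa5, its chief chaperone, was at 177, 471 and 228 FPKM and Herpud1, of protein degradation at the reticulum, at 89.1, 163 and 61.8 FPKM. Calr and Pdia3, both folding proteins of the reticulum, were even, at 217, 229 and 249 and at 178, 203 and 227 FPKM. In library 2 the globin genes stood high as well, and 8 of 13 fibroblast and 7 of 7 mesothelial genes were lowest there, against 40.2% of all genes. Their part in the stress gene pattern was not tested.

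**Figure D4:**
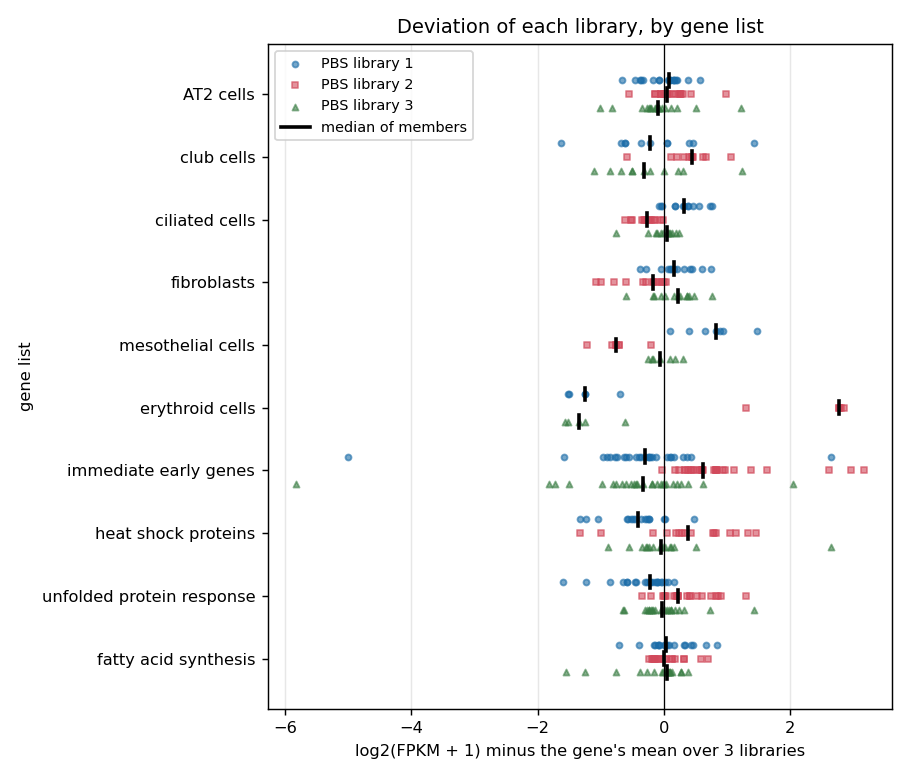
For each list member with a mean of at least 1 FPKM, log2(FPKM + 1) in a library minus the gene's mean over the 3 PBS libraries, with a symbol per library and a black bar at the median of members. Library 2 lies to the right for immediate early (25 of 27 highest), heat shock (13 of 16) and erythroid genes (5 of 5). Library 1 does so for mesothelial genes (7 of 7). The AT2 list deviates less than these lists, with 10 of 19 members highest in library 1 and 12 lowest in library 3.

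Most genes were measured alike in the 3 mice. Among 11677 genes with a mean of at least 1 FPKM, the median coefficient of variation was 20.7%, and the median range, the highest minus the lowest log2(FPKM + 1), was 0.48. A range over 1 was found for 2069 genes (17.7%) and over 2 for 479. Across these genes Pearson's r of the log2 values was 0.898 for libraries 1 and 2, 0.897 for 1 and 3 and 0.906 for 2 and 3. Each r is across genes of a pair of libraries and says nothing of sampling between mice, since genes are not replicates. By level, 20.2% of genes with a mean of 1 to 5 FPKM and 15.8% of those at 100 FPKM or more had a range over 1. The median coefficient of variation was 27.8% and 15.5% in these 2 classes, and the added 1 FPKM narrows the log2 range of low genes.

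The range moved with the number of exons of the listed transcripts, taken from GENCODE M21. A range over 1 was found in 67.3% of 162 genes with 1 exon, in 49.4% of 425 with 2 exons and in 15.8% of 11083 with 3 or more. Listed zeros followed the same order. Over all genes, at least 1 library was listed at 0 for 193 of 292 genes with 1 exon (66.1%), 87 of 634 with 2 exons (13.7%) and 428 of 12991 with 3 or more (3.29%). Genes with 1 exon and a high value elsewhere make these zeros visible. Ier2, an immediate early gene, was at 0, 247 and 130 FPKM, Pcbp1, an RNA-binding protein, at 90.2, 0 and 72.3 FPKM, and Hexim1, an inhibitor of transcription elongation, at 34.9, 69.1 and 0 FPKM. Each of the 3 libraries thus had such a zero in a gene that the other libraries listed well above 10 FPKM. A listed 0 in these files is not taken here as absence of the transcript, and why the zeros fall on these genes was not tested. With 3 or more exons only, r between libraries was 0.921, 0.925 and 0.931.

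**Figure D5:**
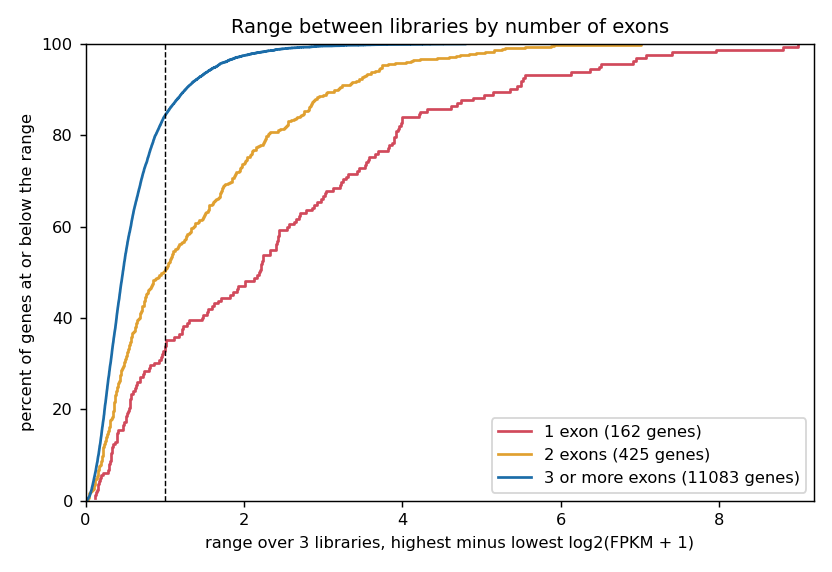
Percent of genes (mean of at least 1 FPKM) at or below a given range over the 3 PBS libraries, in log2(FPKM + 1), for genes with 1, 2 and 3 or more exons, with a dashed line at a range of 1. The curve of 11083 genes with 3 or more exons rises fastest, and 67.3% of the 162 genes with 1 exon lie beyond the line.

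Numbered gene models and antigen receptor segments were left out of the genes ranked by range. Of the 15 remaining genes with the largest ranges and a mean of at least 5 FPKM every gene had 1 or 2 exons. Junb led with a range of 8.99, then mt-Co1 with 8.80 and Ier2 with 7.96. Cldn3, a claudin of tight junctions, was at 0, 5.54 and 122 FPKM, and Cox8a, a subunit of cytochrome c oxidase, at 210, 184 and 2.50 FPKM. Thbd, thrombomodulin, was at 129, 124 and 1.97 FPKM. These extremes fell on all 3 libraries rather than on a single library.

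Among genes with 3 or more exons, chosen after the values were seen, each library had its own set. A gene is counted for a library when that library is over 1 above, or below, both others on the log2 scale. Of 11083 such genes with a mean of at least 1 FPKM, 199 were higher and 178 lower in library 1, 142 and 241 in library 2, and 132 and 199 in library 3. In library 1 the higher genes included Scgb1a1 and Lyz1 and also Cxcl12, a chemokine of stromal cells, at 87.5, 3.67 and 11.6 FPKM, and Id2, an inhibitor of helix-loop-helix factors, at 119, 14.4 and 14.5 FPKM. Lower there was Dnajc3, a chaperone of the reticulum, at 11.8, 69.2 and 63.4 FPKM. The sets were thus of mixed cell types and functions.

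In library 2 the higher genes included the 4 globin genes. Atf3, a stress-induced transcription factor, was at 19.7, 236 and 10.7 FPKM, Ptgs2, the inducible cyclooxygenase, at 5.12, 38.4 and 5.25 FPKM, and Il6, the cytokine, at 1.29, 16.9 and 2.94 FPKM. Tsc22d3, a target of glucocorticoids, was at 5.71, 92.4 and 19.6 FPKM. For Atf3 and Ptgs2 the other 2 libraries lay within a factor of 2, far below library 2. Lower in library 2 was Fgf10, a growth factor of the lung mesenchyme, at 12.2, 1.00 and 18.3 FPKM.

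In library 3 the lower genes included Hopx and Scd2 and also Clic5, a chloride channel protein of AT1 cells, at 14.6, 18.1 and 1.00 FPKM, and Clic4, of the same family, at 138, 164 and 30.5 FPKM. The higher genes included Ahnak, a giant scaffold protein, at 6.79, 8.96 and 72.1 FPKM, Nbl1, a secreted BMP antagonist, at 46.3, 32.3 and 203 FPKM, and Wwtr1, the Hippo effector TAZ, at 3.49, 7.13 and 33.2 FPKM. Yap1, also a Hippo effector, had the reverse order of Wwtr1, at 29.6, 24.7 and 8.56 FPKM. Low values in library 3 were thus found among AT2, AT1 and lipid genes, while Sftpa1, Sftpd and Ager were within a factor of 2 in all 3 libraries.

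At the other end, 872 genes had a mean of at least 50 FPKM. The 10 with the smallest range, numbered gene models and receptor segments left out, were nearly equal in the 3 libraries. Cox7c, a subunit of cytochrome c oxidase, was at 99.3, 99.1 and 99.9 FPKM. Atp5h, of ATP synthase, was at 155, 151 and 150 FPKM, Myh9, non-muscle myosin, at 52.6, 51.4 and 53.3 FPKM, and Col4a2, a chain of basement membrane collagen, at 82.9, 85.6 and 84.0 FPKM. The others were Gorasp2, Ndufb3, Tprgl, Ddb1, Nono and Slit3. Actb, cytoplasmic actin, often used as a reference, was at 507, 541 and 569 FPKM.

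All 3 libraries held Y-linked transcripts, with Eif2s3y, a translation initiation factor subunit, at 18.8, 17.8 and 21.7 FPKM and Ddx3y, an RNA helicase, at 6.23, 9.46 and 13.5 FPKM. Of 4 such genes in the files 3 were at 1 FPKM or more in every library, and all 4 were highest in library 3, or 2 with quantile normalization. Library 3 was highest for 32.3% of all genes, or 32.4% with quantile normalization. Kdm5d, a histone demethylase, was at 0.997, 1.82 and 1.91 FPKM.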

How the data were processed

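The authors deposited 1 table per library with an FPKM value for each of 24647 protein-coding transcripts, per the file headers. HISAT2, StringTie, FastQC 0.10.1 and mm10 are named per the submitters' processing notes, and RNA was extracted with TRIzol and made into libraries with a KAPA stranded kit, per the labels' protocols. The annotation, the settings and how the transcripts were selected were not given in the sources used here. Summed FPKM came to 300697, 261779 and 253146 per library. Whole reads could not be recovered: at most 29.8% of low values fell within 0.05 of a common step, so depth and counting error are unknown.

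FPKM were summed by gene ID with Python 3.11.15 and pandas 2.3.3. Where 9 symbols had 2 gene IDs, the ID with the higher mean was used. Spread used log2(FPKM + 1) and genes with a mean of at least 1 FPKM. Exon numbers came from GENCODE M21, which holds 24553 of the transcript IDs. The functions were tested on simulated data.

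Genes named are the 30 highest, the defining, up to 6 highest and up to 4 lowest members of each list, up to 4 per family, the 15 largest ranges (mean of at least 5 FPKM), 8 per library that stands apart, and the 10 smallest ranges (mean of at least 50 FPKM). Genes with 3 or more exons, promoter matches and clock genes were named after their values were seen. Before genes were picked by range or library, 583 numbered gene models and antigen receptor segments were left out. Some genes that this rule takes are left out. Members and lists were chosen with earlier results of these data known. Alternatives covered thresholds, pseudocounts, scaling, the transcript sum and each library left out.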

Additional observations from a re-analysis of the deposited data

How the results depend on the processing

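No paired analysis was possible because only the PBS group was used. Over the alternatives run, 825 of 932 values moved by less than the spread between libraries or, for counts and ranges, by 1.5 times at most. Part of this tally was fixed in advance, since leaving out 1 of 3 libraries cannot move a mean by as much as the SD. The mean of mt-Co1 was 2292 FPKM, or 14.4 FPKM without library 1, and still counted as unmoved. The tally is therefore no measure of how far means depend on a single library. At 5 FPKM in place of 1, 6426 genes were present in all libraries, with 6 endothelial and 9 leukocyte genes. At 0.1 FPKM 66 leukocyte genes were, and 56 were at 1 or more with libraries scaled up to equal sums, which lowers the threshold in FPKM. With the highest transcript per gene the list medians were 198 (AT2), 213 (fibroblasts), 2.34 (endothelial) and 1.07 FPKM (leukocytes). The endothelial median was 2.74 to 3.56 FPKM with a library left out. Without Sftpc in the sum ribosomal proteins held 8.52%. Genes with a range over 1 numbered 874 with a pseudocount of 5 (median range 0.31), 1245 at a mean of at least 5 FPKM, and 1081 to 1231 (median range 0.25 to 0.32) with a library left out, since 2 values span less than 3. With 3 or more exons 15 immediate early genes were highest in library 2, since fewer genes were tested. The library that was highest most often changed with the scaling: library 1 for 42.7% of genes as deposited, library 3 for 47.2% with equal sums. Of the 30 highest genes 25 stayed with the highest transcript, and 26 or 27 with a library left out. Without mt-Co1 and globins the 10 highest held 13.2%. Without library 2 the immediate early median was 38.2 FPKM. Exon and library-pattern alternatives were chosen after seeing the data. Unknown depth limits statements on low genes.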

Other observations

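Genes of the circadian clock, singled out after their values were seen, differed between the 3 mice, with 5 of 15 highest in library 1, 6 in library 2 and 4 in library 3. Over all genes the shares were 42.7%, 25.1% and 32.3%. Dbp, a clock output factor, was at 52.1, 9.08 and 0.904 FPKM in libraries 1, 2 and 3. Numbered gene models left out, its range (4.80) was the largest of any gene with 3 or more exons and a mean of at least 5 FPKM. Hlf, of the same family, was at 9.31, 3.57 and 0.903 FPKM, and the repressor gene Nr1d2 at 25.6, 11.6 and 8.93 FPKM. Arntl and Npas2, which encode activators of the clock, had the reverse order, with 11.4, 18.5 and 26.3 FPKM and 6.86, 12.1 and 20.4 FPKM. Nr1d1, also a repressor, was at 112, 143 and 19.1 FPKM, and Per1, a period gene that stress also induces, at 26.8, 63.7 and 24.0 FPKM. Clock itself was even, at 7.90, 8.24 and 8.33 FPKM. Harvest times were not given in the sources used here, and 3 libraries allow no test.

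Cell cycle genes were low. Of 22 listed genes 12 were at 1 FPKM or more in every library, with a median of 1.51 FPKM. Cdk1, the mitotic kinase, was at 0.794, 0.149 and 0.520 FPKM and Ccnb1, its cyclin, at 0.287, 0.387 and 0.492 FPKM, while Cdkn1a, the inhibitor p21, was at 8.55, 53.1 and 29.3 FPKM.

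Gapdh, a glycolytic gene often used as a reference, was at 32.9, 37.9 and 38.0 FPKM and ranked 1257, far below Actb. Near-identical copies of Gapdh in the mouse genome can take part of its reads, so its level is uncertain. Of 2674 genes with several listed transcripts and a mean of at least 10 FPKM, 2190 (81.9%) had the same transcript highest in all 3 libraries. At a mean of at least 10 FPKM, 23.5% of single transcripts had a range over 1, against 16.1% of genes.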
